A study of Homo sapiens with 12 samples.

Results

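The SOCS family holds 8 genes in human, SOCS1 to SOCS7 and CISH. They were taken by symbol from the count table, where each symbol has 1 row among 43769 genes. All 8 passed the filter on low counts that left 15828 genes for testing. The family was chosen by the measured level of SOCS2, which had been seen to be lower with IFNγ. Every comparison below shares libraries with that choice, so SOCS2 is given as a description without a test throughout. The other 7 members were taken by name.

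RNA from SK-N-DZ, an established neuroblastoma cell line, was sequenced in 12 libraries, 3 in each of 4 groups. All libraries came from cells that carry a doxycycline-inducible short hairpin RNA against ARID1A, a DNA-binding subunit of the SWI/SNF chromatin remodeler. Untreated cells (C) and cells given IFNγ for 24 h (I) had no doxycycline and are labelled WT. Cells given doxycycline for 4 days (D) and cells given doxycycline for 4 days with IFNγ for 24 h (DI) are labelled shARID1A. The carrier cells were a single clone, and no library had doxycycline without the hairpin, so the effects of doxycycline and of the hairpin cannot be told apart.

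SOCS proteins are the brakes of JAK-STAT signaling. A cytokine such as IFNγ brings JAK kinases together at its receptor, the kinases phosphorylate STAT factors, and the STATs enter the nucleus and switch on genes that include some SOCS genes themselves. The SOCS proteins made then bind the receptor or the kinase through an SH2 domain. Their SOCS box recruits elongins and a cullin ubiquitin ligase that marks the bound protein for destruction. SOCS1 and SOCS3 also block JAK kinases directly. SOCS1 is best known as the inhibitor of IFNγ signaling, SOCS3 of IL-6 family signaling, and SOCS2 and CISH of growth hormone and other STAT5-activating signals. SOCS4 and SOCS5 have been tied to EGF receptor signaling, and SOCS6 and SOCS7 to receptor tyrosine kinase and insulin signaling.

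Total counts ran from 16469832 to 21790869 per library, and 3 counts corresponded to 0.135 to 0.187 CPM, the counts scaled to library size. ARID1A, the target of the hairpin, had 197, 186 and 165 CPM in the C libraries and 197, 159 and 158 CPM in the D libraries. It had 192, 203 and 194 CPM in the I libraries against 151, 133 and 148 CPM in the DI libraries. The D and C libraries overlapped (log2 fold change −0.09, SE 0.11, edgeR adjusted p = 0.788). Every DI library was below every I library, and groups without overlap were found for 16.6% of all tested genes. The difference did not pass the test (−0.44, SE 0.11, edgeR adjusted p = 0.115). With the replicate number as a block it did pass (adjusted p = 0.0111), where 10.5% of all genes were called. It passed in 2 of the 7 alternatives that left out no library and in 0 of the 13 that did. Labels are used below as given, and ARID1A mRNA was not clearly lower in the libraries labelled D. The 11 adrenergic neuroblastoma markers examined summed to 4630 to 6050 CPM over all libraries, and 0 of them were at 0 throughout. In D vs C their log2 fold changes ran from −3.78 (TH) to 0.27 (GATA3), with a median of −0.01, and 0 were called. The 5 leukocyte markers summed to 1.78 to 14.4 CPM, with CD3E at 0 in every library. The 6 mesenchymal markers summed to 33.0 to 72.7 CPM over the C and D libraries and to 57.6 to 122 CPM over the I and DI libraries. PDGFRB was the largest part of this sum, with means of 35.2 CPM in C and 65.3 CPM in I. The 6 markers did not move together. In I vs C their log2 fold changes ran from −1.18 (LUM) to 1.84 (COL1A2), with a median of 0, and 0 were called. Their part in the results below was not tested. Counts in bulk RNA cannot separate a change in the number of cells from a change in RNA per cell.

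SOCS1 was nearly silent without IFNγ and was the most abundant member per length in I. SOCS3 rose too, from the same low level to a smaller one. Of the other members, SOCS2 was lower with IFNγ, and CISH and SOCS4 to SOCS7 did not pass the test. In I vs C 2 of the 7 members tested were called, both higher, where 2.21% of all tested genes were called and 2.1% were called higher. In DI vs D the same members were called, 2 of 7, where 1.72% of all tested genes were called and 1.67% were called higher. These calls were made by edgeR's quasi-likelihood test at a Benjamini-Hochberg adjusted p under 0.05, without a term for the replicate number. The median log2 fold change of the 8 members was 0.12 in I vs C and 0.09 in DI vs D, beside −0.008 and −0.012 over all tested genes.

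**Figure D1:**
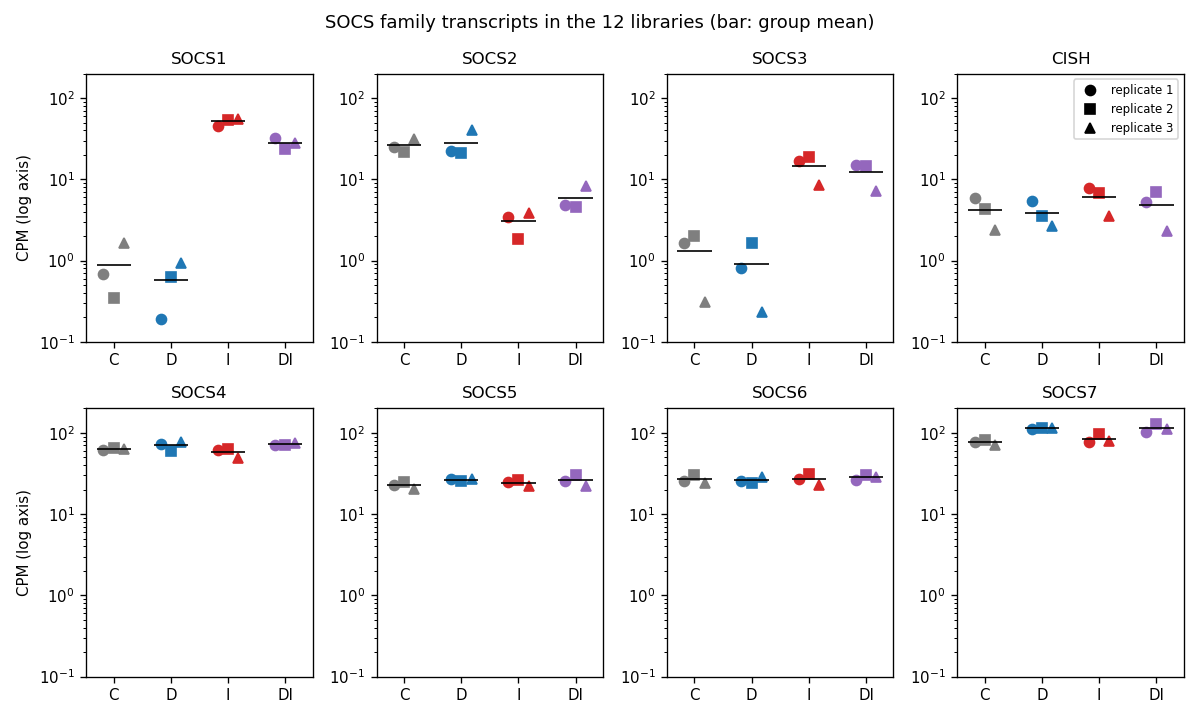
Expression of the 8 SOCS family members in each library, in CPM on a log axis, by group (C untreated, D doxycycline, I IFNγ, DI both). Each symbol is 1 library and its shape gives the replicate number, and the bar is the group mean. SOCS1 sits at 0.191 to 1.62 CPM without IFNγ and at 23.9 to 54.8 CPM with it, and SOCS2 moves the other way. The lower row shows little change with IFNγ, and SOCS7 in it is higher in D than in C and in DI than in I.

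SOCS1 (ENSG00000185338, chromosome 16, 11254405 to 11256200, minus strand, GRCh38) had 0.676, 0.348 and 1.62 CPM in the C libraries. It had 45.7, 54.2 and 54.8 CPM in the I libraries. The D libraries had 0.191, 0.621 and 0.927 CPM. The DI libraries had 32, 23.9 and 28.2 CPM. Every library with IFNγ was above every library without it, and groups without overlap were found for 15.1% of all tested genes in I vs C and 9.55% in DI vs D. The lowest D library held only 4 SOCS1 counts, close to the 3-count floor. SOCS1 rose 59.4-fold in I vs C (log2 fold change 5.89, SE 0.51, edgeR adjusted p = 3.88e-05). In DI vs D it rose 49.0-fold (5.61, SE 0.51, edgeR adjusted p = 7.46e-05). Both calls held in every alternative tried. Since the baseline rests on few counts, the fold itself is loose. The I to C ratio within replicate numbers ran from 33.8 to 156, and the DI to D ratio from 30.4 to 168.

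The region just upstream of SOCS1 is shown because it holds the only match in these windows to the IRF-type motif, the core of the interferon-stimulated response element that IRF factors bind. The stretch is chr16:11256265-11256384 (GRCh38.p14, RefSeq, minus strand), from 180 to 61 bases before the transcript start, with the match in capitals.
SOCS1 upstream: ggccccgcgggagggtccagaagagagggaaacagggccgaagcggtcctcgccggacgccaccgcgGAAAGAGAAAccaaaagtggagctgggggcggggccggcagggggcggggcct
The match begins 113 bases before the start. The IRF-type motif was searched on both strands and occurs in 3.57% of 35116 such windows, each 300 bases long with 250 before and 50 after a transcript start. TTCNNNGAA, the pattern of STAT binding sites and the same on both strands, had 0 matches in the SOCS1 window. A match is a description of letters, not a measured site.

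SOCS3 (ENSG00000184557, chromosome 17, 78356778 to 78360077, minus strand) had 1.66, 1.99 and 0.312 CPM in the C libraries and 0.810, 1.66 and 0.232 CPM in the D libraries. It had 16.6, 19.0 and 8.44 CPM in the I libraries and 15.1, 14.5 and 7.21 CPM in the DI libraries. All 6 libraries with IFNγ were above all 6 without it. Replicate 3 was the lowest library of each group, with 5 counts in C and 4 in D. SOCS3 rose 11-fold in I vs C (log2 fold change 3.46, SE 0.70, edgeR adjusted p = 0.0245) and 13.5-fold in DI vs D (3.75, SE 0.72, edgeR adjusted p = 0.0196). The call in I vs C was lost without C replicate 1 (adjusted p = 0.107), 2 (0.0593) or 3 (0.0625) or I replicate 1 (0.0819) or 2 (0.0901). In DI vs D it was lost without D replicate 1 (0.121) or 3 (0.0612) or DI replicate 1 (0.0678) or 2 (0.0571), and with only these groups in the model (0.0566). Of the 8 alternatives that left out no library, the call held in 8 in I vs C and in 7 in DI vs D. In I vs C the adjusted p was 2.68e-05 with the replicate number as a block, where 6.02% of all genes were called. It was 1.34e-06 by DESeq2, where 2.9% of the genes it tested were called, and 0.00369 by edgeR without replicate 3 in any group. The log2 fold change stayed between 3.00 and 4.51 over all fits tried.

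SOCS2 (ENSG00000120833, chromosome 12, 93569814 to 93583487, plus strand) was the member for which IFNγ went with a lower level. It had 24.7, 21.9 and 31.6 CPM in the C libraries and 3.46, 1.85 and 3.88 CPM in the I libraries. It had 22.4, 21.2 and 40.4 CPM in the D libraries and 4.82, 4.61 and 8.24 CPM in the DI libraries. The libraries with and without IFNγ did not overlap in either arm, and the gene was chosen for its lower level with IFNγ. SOCS2 was 8.48-fold lower in I than in C (log2 fold change −3.08, SE 0.37) and 4.73-fold lower in DI than in D (−2.24, SE 0.35). The DI to D ratio was 0.216, 0.218 and 0.204 in replicates 1, 2 and 3. The I to C ratio was 0.140, 0.0845 and 0.123. Over the scalings, filters, tests and left-out libraries tried, the log2 fold change stayed between −3.30 and −2.83 in I vs C and between −2.57 and −1.88 in DI vs D. Even the lowest SOCS2 library, I replicate 2, held 34 counts.

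SOCS2-AS1 (ENSG00000246985, chromosome 12, 93542463 to 93571768, minus strand) starts within SOCS2 and runs the other way. It had 2.58, 2.33 and 2.87 CPM in the C libraries and 0.544, 0.382 and 0.943 CPM in the I libraries. It had 3.81, 3.31 and 4.81 CPM in the D libraries and 0.411, 0.461 and 0.991 CPM in the DI libraries. The antisense transcript was thus low wherever SOCS2 was low. It fell by 2.04 on the log2 scale in I vs C (SE 0.43, edgeR adjusted p = 0.0297) and by 2.66 in DI vs D (SE 0.43, edgeR adjusted p = 0.00638). The I vs C call was lost with only these groups in the model (adjusted p = 0.0759), without any single C library (0.0678 to 0.102), without D replicate 1 (0.0558) and without I replicate 1 (0.147) or 2 (0.132). The DI vs D call held in every alternative. Their exons share 277 bases, 4.1% of the SOCS2 exons and 7.3% of those of SOCS2-AS1. Whether reads were counted by strand was not stated, so reads in these bases cannot be assigned between them. SOCS2-AS1 was named for its symbol and place, and its tests use the libraries that chose SOCS2. They are therefore no separate support for the lower level of SOCS2.

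CISH (ENSG00000114737, chromosome 3, 50606490 to 50611831, minus strand), a known STAT5 target, had 5.96, 4.32 and 2.37 CPM in the C libraries and 5.34, 3.52 and 2.66 CPM in the D libraries. It had 7.87, 6.76 and 3.56 CPM in the I libraries and 5.29, 7.02 and 2.30 CPM in the DI libraries. The groups overlapped in every comparison. The log2 fold change was 0.52 in I vs C (SE 0.48, edgeR adjusted p = 1) and 0.34 in DI vs D (SE 0.48, edgeR adjusted p = 1). Within replicate numbers the I to C ratio was 1.32, 1.57 and 1.5. The DI to D ratio was 0.990, 2.00 and 0.862.

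Among the 5 members with a window, only CISH held the STAT-type letters in the bases searched. Its window held 4 matches to TTCNNNGAA, beginning 241, 230, 129 and 112 bases before the start, in 2 close pairs. Of the 35116 windows 7.66% held at least 1 match and 0.0199%, or 7 windows, held 4 or more. Both pairs are shown with the matches in capitals, from GRCh38.p14, minus strand, at chr3:50611996-50612015 and chr3:50611878-50611903.
CISH distal pair: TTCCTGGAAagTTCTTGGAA
CISH proximal pair: TTCTAGGAAgacgctgcTTCCGGGAA
MAPKAPK3, on the opposite strand, overlaps the span of CISH by 312 bases. The SOCS3, SOCS4 and SOCS6 windows held neither pattern. Of the SOCS3 windows, the first lies apart from and upstream of the GENCODE start and the second lies inside the gene, so the bases directly upstream of that start were not searched. Windows were matched for 5 of the 8 members, and SOCS2, SOCS5 and SOCS7 were not among them.

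**Figure D2:**
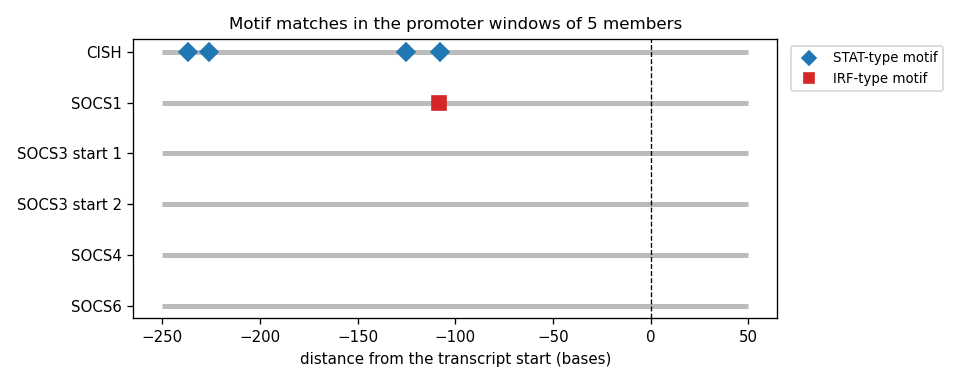
Positions of the motif matches in the windows of 5 members, as distance in bases from the transcript start (dashed line). Grey bars are the windows searched, diamonds are TTCNNNGAA and the square is the IRF-type motif. CISH holds 4 STAT-type matches in 2 pairs, SOCS1 holds 1 IRF-type match, and the other 4 windows hold 0.

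SOCS4, SOCS5, SOCS6 and SOCS7 were expressed at a steady level with and without IFNγ, and 0 of these 4 passed the test in I vs C or DI vs D. SOCS4 (ENSG00000180008) had 61.2, 65.3 and 63.1 CPM in C against 62.1, 62.6 and 49.2 in I (log2 fold change −0.12, SE 0.12, edgeR adjusted p = 1). SOCS5 (ENSG00000171150) had 23.0, 24.7 and 20.3 CPM in C against 24.6, 26.6 and 21.9 in I (0.10, SE 0.14, edgeR adjusted p = 1). The SOCS5 I to C ratio was 1.07, 1.07 and 1.08 within replicate numbers. SOCS6 (ENSG00000170677) had 25.7, 30.6 and 24.3 CPM in C against 27.3, 31.4 and 22.5 in I (0.01, SE 0.15, edgeR adjusted p = 1). SOCS7 (ENSG00000274211) had 76.4, 82.6 and 71.3 CPM in C against 76.8, 96.9 and 79.7 in I (0.14, SE 0.11, edgeR adjusted p = 1). In DI vs D the log2 fold changes of these 4 ran from −0.02 to 0.13. The standard errors of these members were 0.11 to 0.15, against 0.37 to 0.70 for SOCS1, SOCS2, SOCS3 and CISH in I vs C, so much smaller changes could have been seen in them.

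**Figure D3:**
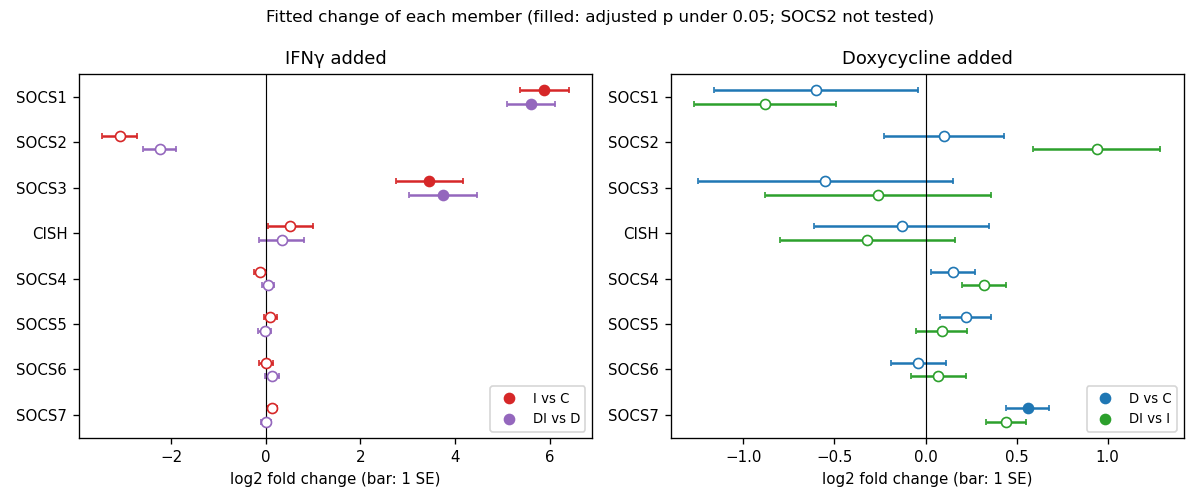
Fitted log2 fold change of each member (point) with 1 standard error (bar), for IFNγ on the left (I vs C and DI vs D) and doxycycline on the right (D vs C and DI vs I). Filled points had an edgeR adjusted p under 0.05, and SOCS2 was not tested. SOCS1 and SOCS3 are filled on the left, SOCS7 in D vs C alone is filled on the right, and the axes differ in range.

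Levels of different genes were compared per length, as RPKM, here CPM divided by the kilobases of merged exon. In C, SOCS4 (8.97 ± 0.291, SD, n = 3) and SOCS7 (8.90 ± 0.656) had the highest RPKM and did not differ beyond their spread. SOCS6 (4.49 ± 0.553) and SOCS2 (3.85 ± 0.737) followed with overlapping ranges, and then SOCS5 (2.98 ± 0.292), whose range met that of SOCS2. CISH (0.825 ± 0.352), SOCS1 (0.491 ± 0.368) and SOCS3 (0.483 ± 0.325) overlapped at the bottom. In I the order was changed at both ends. SOCS1 had 28.7 ± 2.83 RPKM, above SOCS7 at 9.80 ± 1.26 and SOCS4 at 8.23 ± 1.08. SOCS3 had 5.37 ± 2.02 RPKM and overlapped SOCS6 (4.52 ± 0.744) and SOCS5 (3.21 ± 0.310). SOCS2 came last with 0.452 ± 0.158 RPKM, below CISH at 1.19 ± 0.438. In DI, SOCS1 (15.6 ± 2.26 RPKM) and SOCS7 (13.3 ± 1.46) overlapped at the top, and SOCS2 (0.869 ± 0.301) overlapped CISH (0.953 ± 0.467) at the bottom.

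The summed RPKM of the family was 31.0 ± 1.09 in C and 61.5 ± 5.34 in I (SD, n = 3). With doxycycline it was 36.4 ± 2.89 in D and 53.7 ± 1.93 in DI. SOCS1 made up 1.61% ± 1.24 of this sum in C and 46.8% ± 5.25 in I. Its share was 0.872% ± 0.517 in D and 29.1% ± 4.2 in DI. The share of SOCS2 was 12.5% ± 2.78 in C against 0.753% ± 0.309 in I, and 11.2% ± 3.35 in D against 1.63% ± 0.632 in DI. With IFNγ the family's transcripts thus came mostly from SOCS1, SOCS4 and SOCS7, while the share of SOCS2 was lower. Shares of a sum move together, so the lower share of SOCS2 reflects both its own lower level and the larger sum.

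**Figure D4:**
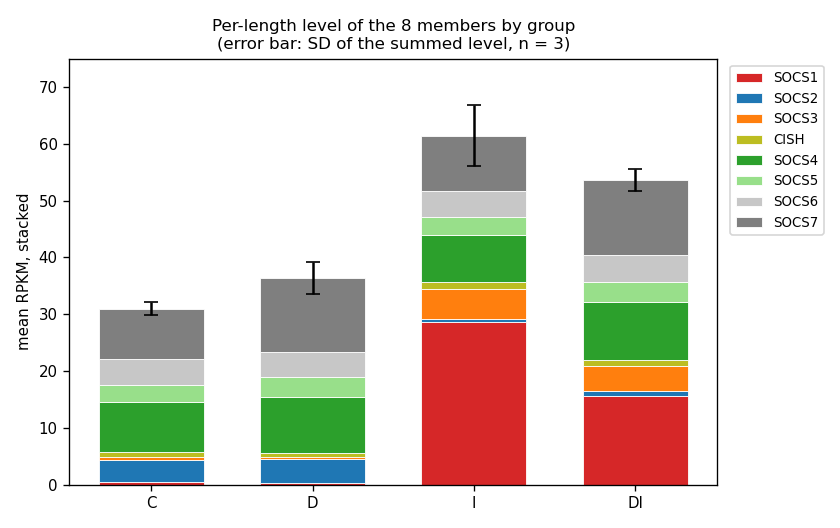
Mean RPKM of the 8 members stacked by group, with the SD of the summed level over 3 libraries as the error bar. The sum is 31.0 in C and 61.5 in I, SOCS1 fills 46.8% of the bar in I and 29.1% in DI, and the SOCS2 segment nearly disappears in both.

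The effect of doxycycline in the absence of IFNγ was read from the main test, which had no term for the replicate number. The share of SOCS7 in the family's summed RPKM was 28.7% ± 1.15 in C and 36.2% ± 2.8 in D (SD, n = 3). In D vs C 1 of the 7 members tested was called, SOCS7, where 1.23% of all tested genes were called. SOCS7 (chromosome 17, 38352228 to 38405593, plus strand) had 110, 115 and 115 CPM in the D libraries, all above the 71.3 to 82.6 CPM of C. It rose 1.48-fold (log2 fold change 0.56, SE 0.12, edgeR adjusted p = 0.0452). The ratio within replicate numbers was 1.44, 1.39 and 1.62. The adjusted p was near the threshold and passed it in 2 of the 12 fits that left out a single library, those without I replicate 2 (0.0413) and without DI replicate 2 (0.0369). In the other 10 it was 0.0563 to 0.208, and without replicate 3 in any group 0.386. It was 0.0807 with no filter on low counts, 0.133 with only these groups in the model and 0.00161 with the replicate number as a block, where 13.9% of all genes were called. The log2 fold change stayed between 0.49 and 0.65 throughout. The other 6 members had adjusted p from 0.531 (SOCS5) to 0.943 (CISH). SOCS5 had 26.9, 25.5 and 26.8 CPM in D, above all 3 C libraries (log2 fold change 0.22, SE 0.14, edgeR adjusted p = 0.531). Groups that did not overlap were found for 19.2% of all tested genes in D vs C, so 2 of 7 members is near that share.

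The comparison of DI with I asks how the family differed with doxycycline when IFNγ was present. By edgeR 0 of the 7 members tested were called, where 0.67% of all tested genes were called. Unadjusted p-values under 0.05 were found for 3 of these 7 and for 12.2% of all genes. These 3, SOCS1, SOCS4 and SOCS7, were also those of the 7 whose DI and I libraries did not overlap, which held for 16.6% of all genes. SOCS1 was lower in DI, and SOCS4 and SOCS7 were higher.

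SOCS1 had 32, 23.9 and 28.2 CPM in DI beside 45.7 to 54.8 CPM in I. The level in DI was 1.84-fold lower (log2 fold change −0.88, SE 0.39, edgeR adjusted p = 0.401), and the adjusted p was 0.169 by DESeq2 and 0.0601 with the replicate block. Over all alternatives the log2 fold change was −0.99 to −0.78. It did not pass the test in any of them. In D vs C, where SOCS1 is close to the floor, it was −0.60 (SE 0.56, edgeR adjusted p = 0.705).

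SOCS2 was 1.92-fold higher in DI than in I (log2 fold change 0.94, SE 0.35). The DI to I ratio was 1.39, 2.49 and 2.13 in replicates 1, 2 and 3. This comparison uses the IFNγ libraries whose low level chose the gene, and no test is given. In D vs C the log2 fold change of SOCS2 was 0.10 (SE 0.33), and it turned to −0.26 without D replicate 3.

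SOCS7 had 103, 128 and 113 CPM in DI against 76.8, 96.9 and 79.7 in I. It was 1.36-fold higher (log2 fold change 0.44, SE 0.11, edgeR adjusted p = 0.134), and the ratio within replicate numbers was 1.34, 1.32 and 1.41. The adjusted p was 0.00687 with the replicate block, where 10.5% of all genes were called, and 0.0365 by DESeq2, where 3.13% of the genes it tested were called. SOCS4 had 71.6, 70.9 and 74.5 CPM in DI, above all 3 I libraries (0.32, SE 0.12, edgeR adjusted p = 0.298). SOCS3 (−0.26, adjusted p = 0.933), CISH (−0.32, 0.876), SOCS5 (0.09, 0.873) and SOCS6 (0.07, 0.919) overlapped between the groups.

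The difference between the IFNγ effects with and without doxycycline was tested for 7 members, and 0 were called by edgeR (adjusted p = 1 for each). Over all genes 0% were called, 99 genes had an unadjusted p under 0.05, and DESeq2 called 1. For SOCS1 this difference was −0.28 on the log2 scale with an SE of 0.70. For SOCS2, given as a description, it was 0.84 with an SE of 0.48. D vs C and DI vs I share no library, but both share libraries with the IFNγ comparisons.

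Libraries with the same replicate number varied together, and several members followed this. Replicate 3 was the lowest library in all 4 groups for SOCS3 and CISH, as it was for 15.2% of all tested genes. Replicate 3 was the highest in all 4 groups for SOCS2, as it was for 14.2% of the genes, and replicate 2 was the lowest, as for 11.9%. SOCS3 in replicate 3 was 0.171, 0.188, 0.475 and 0.486 of the mean of replicates 1 and 2 in C, D, I and DI. CISH was 0.461, 0.601, 0.487 and 0.373 of that mean. SOCS2 was 1.35, 1.85, 1.46 and 1.75 times that mean. Replicate 3 was thus at opposite ends for SOCS2 and SOCS3 in every group, each a position shared with many genes. SOCS2 was chosen for its lower level with IFNγ, so its contrast with SOCS3 between IFNγ groups is a description. What distinguished replicate 3 was not stated in the labels, and its part in these levels was not tested.

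**Figure D5:**
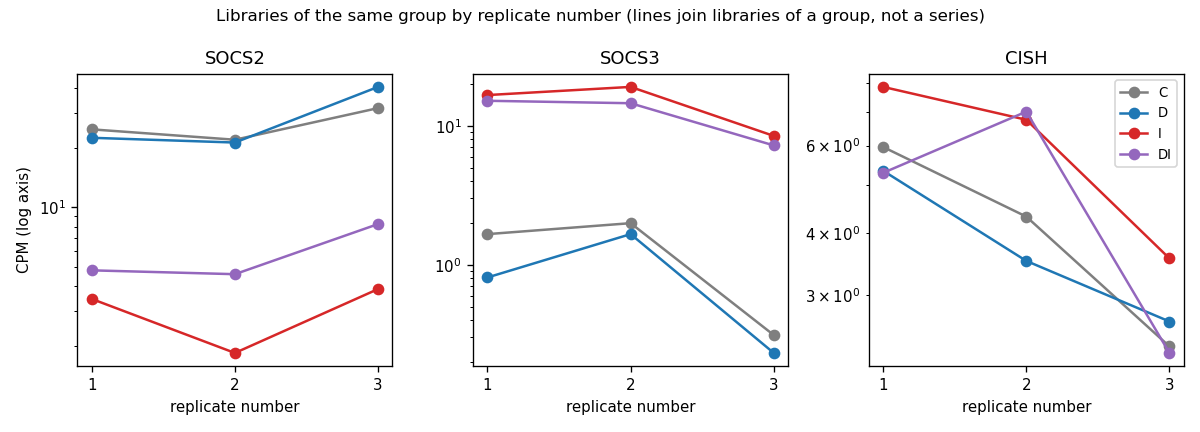
CPM (log axis) of SOCS2, SOCS3 and CISH by replicate number, with a line for each group that joins its 3 libraries. Replicate 3 is the highest SOCS2 library and the lowest SOCS3 and CISH library in all 4 groups.

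The genes whose profile over the 12 libraries was most like that of SOCS1 were IRF2, HAPLN3 and NMI, with Pearson r of 0.993, 0.992 and 0.991 for log2 CPM among 13953 genes of at least 1 CPM on average. IRF2, an interferon regulatory factor, had means of 7.24, 6.71, 34.1 and 29.6 CPM in C, D, I and DI. For SOCS2 they were MYO19 (0.957), SOCS2-AS1 (0.949) and ENTR1 (0.936). SOCS2-AS1 shares exon bases with SOCS2, and reads there cannot be assigned between them. MYO19, a mitochondrial myosin, had means of 70.4, 74.0, 53.3 and 61.4 CPM, so its profile had the same order with a far smaller range. These libraries fall into those with and without IFNγ, and r mostly follows that split.

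The parts of the pathway that SOCS proteins act on were examined from lists written with earlier results of these data known. Of 12 IFNγ receptor, JAK and STAT genes examined, 3 rose in I vs C and in DI vs D, and 0 fell. Over all tested genes 2.1% were called higher in I vs C and 1.67% in DI vs D. JAK2, a kinase of the IFNγ receptor that SOCS1 inhibits, had a log2 fold change of 2.89 in I vs C (SE 0.27, edgeR adjusted p = 8.22e-05). STAT2 had 2.51 (SE 0.21, 2.92e-05) and STAT3 had 1.94 (SE 0.29, 0.00311). All 3 calls held in every alternative, in both arms. STAT5B, which carries the signals that SOCS2 and CISH restrain, had −0.08 in I vs C (SE 0.15, edgeR adjusted p = 1). Its paralog STAT5A had 12.6 ± 7.09 CPM in C and 44.2 ± 20.2 CPM in I (SD, n = 3) without overlap, a log2 fold change of 1.81 (SE 0.78, edgeR adjusted p = 0.556). In DI vs D STAT5A had 1.75 (SE 0.78, edgeR adjusted p = 0.768). With the replicate number as a block STAT5A passed in both, with adjusted p = 0.00329 and 0.00384. That block called 6.02% of all genes in I vs C and 4.46% in DI vs D. Over the 12 genes the median was 0.27 in I vs C.

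In DI vs I 1 of these 12 genes was called, where 0.67% of all tested genes were called. It was TYK2, a JAK kinase of the type I interferon receptor, with 0.60 (SE 0.11, edgeR adjusted p = 0.0341). It lost the call without any 1 of 9 libraries, among them every I library (0.0677 to 0.145), with only these groups in the model (0.212), with no filter on low counts (0.0712) and without replicate 3 in any group (0.362). TYK2 was also higher with doxycycline in the absence of IFNγ, with 0.43 in D vs C (SE 0.11, edgeR adjusted p = 0.0915). Its D and C libraries did not overlap, as for 19.2% of all tested genes. The interaction of TYK2 was 0.17 with an SE of 0.15. In DI vs I JAK2 had −0.65 (SE 0.25, edgeR adjusted p = 0.325).

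The 6 genes for SOCS box partners, elongins B and C, cullins 2 and 5 and their RING proteins, had 0 calls in any comparison, a count that the share of all genes called would also give. Their log2 fold changes in I vs C were −0.13 to 0.32. In DI vs I they were −0.17 to 0.11. CUL2, the highest of them in I vs C, had 49.5 to 57.5 CPM in C and 65.9 to 68.1 CPM in I (0.32, SE 0.11, edgeR adjusted p = 0.343). With the replicate number as a block the adjusted p of CUL2 was 0.0356, where 6.02% of all genes were called. Of 13 tested genes for other inhibitors of the pathway, 1 rose with IFNγ, where 2.1% of all tested genes were called higher in I vs C. USP18, which restrains type I interferon signaling, had a log2 fold change of 5.72 in I vs C (SE 0.80, edgeR adjusted p = 0.00191) and 5.33 in DI vs D (SE 0.78, 0.0033). The phosphatases and PIAS genes of that list were not called. PTPN2, a phosphatase of JAK kinases and STATs, was just over the threshold in I vs C, with 17.9 to 19.2 CPM in C and 27.0 to 39.8 CPM in I (0.91, SE 0.21, edgeR adjusted p = 0.0521). It had 0.66 in DI vs D (SE 0.21, edgeR adjusted p = 0.289). With the replicate number as a block PTPN2 passed in both, with adjusted p = 0.00125 and 0.0111, where 6.02% and 4.46% of all genes were called. CBL, a ubiquitin ligase for activated receptors, rose in D vs C (0.58, SE 0.11, edgeR adjusted p = 0.038) and kept the call in 1 of the 12 fits that left out a library, with adjusted p up to 0.183.

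Of 15 tested receptors whose signals SOCS proteins restrain, among them IL6ST, LIFR, INSR and IGF1R, 0 were called in any comparison. The share of all genes called, at most 2.21% in a comparison, would also give such a count. In I vs C their log2 fold changes ran from −1.25 (KIT) to 1.03 (IFNAR2), with a median of 0.13. IL6ST had means of 44.7 CPM in C and 73.1 CPM in I without overlap (0.71, SE 0.23, edgeR adjusted p = 0.28). Of 14 tested genes known as STAT3 or STAT5 targets, 1 rose with IFNγ, in both arms. Over all tested genes 2.1% were called higher in I vs C and 1.67% in DI vs D. BCL6, a transcriptional repressor, had 2.53 in I vs C (SE 0.42, edgeR adjusted p = 0.00608) and 2.25 in DI vs D (SE 0.41, 0.0158). The first was lost without C replicate 1 (0.0513), and the second without D replicate 1 (0.0659) or 3 (0.0871) or DI replicate 2 (0.0583) or with only these groups in the model (0.0927). Without replicate 3 in any group both were lost (0.138 and 0.272). In I vs C the 14 genes ran from −0.35 (FOS) to 2.53 (BCL6), with a median of 0.07. BCL3 (2.33, SE 0.72, edgeR adjusted p = 0.213) and CEBPD (1.86, SE 0.86, 0.649) were not called there. Their I and C libraries did not overlap, as for 15.1% of all tested genes.

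Of 10 tested core IFNγ response genes, 9 rose in I vs C and 8 in DI vs D, and 0 were called in D vs C or DI vs I. The share of all tested genes called was 2.21%, 1.72%, 1.23% and 0.67% in these 4 comparisons. IRF1, a transcription factor that IFNγ induces, had a log2 fold change of 7.58 in I vs C (SE 0.18, edgeR adjusted p = 2.75e-09) and −0.16 in DI vs I (SE 0.13, 0.694). IRF1 was the smallest difference of the list in DI vs I. The list ranged there from −1.64 (CXCL9) to 0.40 (CIITA), with 9 of the 10 genes below 0 and a median of −0.80 beside −0.007 over all genes. GBP1 had −0.80 (SE 0.21, edgeR adjusted p = 0.148), with 0.00732 under the replicate block and 9e-06 by DESeq2. In DI vs I the block called 10.5% of all genes and DESeq2 called 3.13% of those it tested. SOCS1 ranked 74 among all tested genes by p in I vs C and 71 in DI vs D, and SOCS3 ranked 298 and 232. SOCS1 thus stood with the clear IFNγ-induced genes. SOCS3 was among the last of those called by edgeR's main test, which had no term for the replicate number. With the replicate block the adjusted p of SOCS3 in I vs C was 2.68e-05.

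Pseudogenes named after SOCS2, SOCS5 and SOCS6 held at most 6 counts in a library, and the divergent transcript SOCS3-DT at most 9, so neither group was tested. SOCS1 lies within the span of RMI2 without sharing exon bases. SOCS5 shares 160 exon bases with LINC01118 on the same strand and CISH shares 218 with MAPKAPK3 on the opposite strand, and reads there could have been counted to either gene.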

How the data were processed

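Raw counts per gene, whole numbers for 43769 genes in 12 libraries, were made by the authors and deposited as a single table. The aligner, the counting tool, the annotation and strand use are not given in the sources used here, and the submitters' processing notes name DESeq2. The 3 comparison tables of the authors hold fold changes and p-values with normalised columns and were not used, which leaves out 18 per-library columns whose names the labels do not explain. Groups came from the labels, which do not say that replicates were separate cultures, so p-values measure the spread between these libraries. Every identifier of the table occurs in GENCODE release 29 (GRCh38).

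Counts were filtered with filterByExpr (minimum count 10), scaled by TMM and tested with edgeR 4.0.16 (limma 3.58.1, R 4.3.3) in a quasi-likelihood model of the 4 groups, two-sided, with Benjamini-Hochberg adjustment over 15828 genes. The standard error is the log2 fold change divided by the root of F. CPM used TMM-scaled library sizes. RPKM divided CPM by the merged exon length of GENCODE 29. Code was tested on simulated counts. DESeq2 1.42.0, both other scalings, both other filters, the replicate block, only the compared groups and each library left out were alternatives. Promoter windows were RefSeq's on GRCh38.p14, read with Python 3.11.15. Intervals, floors and errors cover counting error and replicate spread only, since reads had no molecular identifiers.

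The members, lists and tests were chosen with earlier results of these data known. SOCS2 was to be tested in D vs C and DI vs I, and both tests were withdrawn after the data were seen, because those libraries had served to choose it. Named genes were all members, ARID1A, genes that carry a member's symbol or overlap a member, at most 4 called genes per list with the smallest adjusted p in I vs C and in DI vs I, and the 3 nearest profiles of SOCS1 and SOCS2. CBL, CUL2, PTPN2, STAT5A, and other uncalled genes given for comparison, were named after their values were seen. Some genes of these lists are not reported here. The labels number replicates 1 to 3 in every group. After group means were removed, same-numbered libraries correlated at 0.338 to 0.804 (18 pairs) and others at −0.628 to 0.143 (36 pairs), so the numbers were taken to pair the libraries. The main test had no term for this pairing. Adjusted p-values given without a block therefore leave it out, and genes not called by the main test are not shown to be unchanged.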

Additional observations from a re-analysis of the deposited data

How the results depend on the processing

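The count of called members kept its value in the alternatives that are not named here. With only the compared groups in the model it was 1 in DI vs D and 0 in D vs C. In D vs C it was also 0 with no filter on low counts and 0 without replicate 3 in any group, a setting chosen after the data were seen. In DI vs I it was 1 by DESeq2 and 1 with the replicate block, SOCS7 in both. The block changed no other call of a member. Leaving out a library gave 1 to 2 called members in I vs C and in DI vs D, 0 to 1 in D vs C and 0 in the other comparisons. The cause was not tested. Counts over all genes moved more. For I vs C, DI vs D, D vs C and DI vs I the replicate block called 953, 706, 2200 and 1658 genes, against 350, 273, 194 and 106 without it. DESeq2 called 530, 405, 649 and 460. A block within the doxycycline arms called 2318 genes in I vs C, 1770 in DI vs D and 4 in the interaction. With only the compared groups D vs C had 16 called genes and DI vs I had 0. Without replicate 3 in any group they had 1 and 2, and with no filter D vs C had 119. Library size alone split D vs C into 199 higher and 89 lower genes (78 and 116 by TMM). It split DI vs I into 54 and 65 (16 and 90).

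Reversed signs were found for member differences that were not called. Library size alone gave −0.03 for SOCS6 in I vs C, −0.02 for SOCS7 in DI vs D and 0.04 for SOCS6 in D vs C. Without replicate 3 in any group SOCS5 had 0.10 in DI vs D and 0.01 in the interaction, SOCS2 had −0.11 in D vs C and SOCS6 had −0.03 in DI vs I. With single libraries left out, SOCS6 ran from −0.11 to 0.11 in I vs C. In DI vs D SOCS4 ran from −0.05 to 0.12, SOCS5 from −0.14 to 0.07, SOCS7 from −0.07 to 0.08 and CISH from −0.02 to 0.68. In D vs C SOCS1 ran from −1.09 to 0.17, SOCS2 from −0.26 to 0.26, SOCS6 from −0.12 to 0.05 and CISH from −0.45 to 0.18. In DI vs I SOCS3 ran from −0.52 to 0.01, SOCS5 from −0.02 to 0.19, SOCS6 from −0.03 to 0.19 and CISH from −0.68 to 0.02. In the interaction SOCS1 ran from −1.05 to 0.22, SOCS3 from −0.14 to 1.06 and CISH from −0.55 to 0.15.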
